A study of Mus musculus with 6 samples.

Results

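Melanocytes read the hormone α-MSH through a short relay of proteins that ends at DNA, and the genes of that relay were measured here in pigmented and less pigmented cells of one mouse melanoma line. Mc1r encodes the melanocortin 1 receptor. The members were the rows of the count table whose gene symbol was one of 10 names chosen for their place in the relay: the receptor gene Mc1r, the adenylyl cyclase genes Adcy3, Adcy5, Adcy6, Adcy7 and Adcy9, the protein kinase A gene Prkaca, the transcription factor gene Creb1 and the phosphodiesterase genes Pde4b and Pde4d. That choice was made with earlier results of these data known. These 10 symbols took up 11 of the 22740 rows, because 2 gene identifiers carry the symbol Pde4d. All 11 rows passed the filter on low counts, which left 11921 genes for testing.

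When α-MSH binds the receptor, the stimulatory G protein switches on adenylyl cyclases, membrane enzymes that make cyclic AMP (cAMP) from ATP. The messenger frees the catalytic subunit of protein kinase A, which phosphorylates CREB and so turns on genes such as Mitf, the master regulator of pigment genes. Phosphodiesterases end the signal by breaking cAMP down. The relay is best known in melanocytes for driving synthesis of dark eumelanin.

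B16-F3 is a mouse melanoma line, grown in DMEM with fetal bovine serum and antibiotics, and the labels name no hormone or drug given to it. Its cells were sorted by flow cytometry into a highly pigmented population, HPC, and a weakly pigmented one, LPC, with 3 libraries of each numbered 1 to 3, and the gate that set the populations apart is not given in the sources used here. Both populations therefore share one line and one medium, and nothing in the labels ties the libraries of a group to separate cultures. Every p-value here thus measures the spread between libraries, which may be technical. The libraries count reads at the 3' ends of messenger RNA. Levels are CPM, the reads of a gene scaled to a common library total, and a log2 fold change is HPC over LPC. The main test was the fit with group alone. A fit with the library number as a block, which compares libraries of the same number, was an alternative. That pairing comes from the data, not the labels. Where only the fit with the block is given, it is named, and an edgeR adjusted p with no fit named is from group alone. A gene is called at an adjusted p under 0.05.

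Libraries held 14695822 to 22186743 counts, and 2.07% to 3.21% of them came from mitochondrial genes, most in HPC replicate 1. The defining melanocyte genes Mitf, Sox10, Pmel, Mlana, Dct and Tyrp1 were all expressed, with a summed level of 32533 to 35952 CPM in HPC cells against 31930 to 34398 CPM in LPC cells. Tyr, which encodes the rate-limiting enzyme of melanin synthesis and was not on that list, had 908, 855 and 994 CPM in HPC libraries 1 to 3, against 261, 62.2 and 238 CPM in LPC libraries 1 to 3 (edgeR adjusted p of 0.0210 in the blocked fit and 0.172 for group alone). Of 8 immune markers 3 had no count in any library (Ptprc, Cd3e and Itgam), 6 stayed under 1 CPM throughout, and the list summed to 8.70 to 15.9 CPM in HPC cells against 4.18 to 9.44 CPM in LPC cells, mostly from the lysosomal gene Cd68. Cd68 averaged 9.99 ± 2.96 CPM in HPC cells against 4.65 ± 2.26 CPM in LPC cells, in overlapping groups. The edgeR fit did not call it with the block (adjusted p = 0.129) or with group alone (adjusted p = 0.420). DESeq2 with the block did (adjusted p = 0.0179). Of 9 markers of fibroblasts, endothelium and keratinocytes 4 had no count (Cdh5, Krt5, Krt14 and Krt10), and the list summed to 5.82 to 8.64 CPM in HPC cells against 10.3 to 17.1 CPM in LPC cells, chiefly through Pdgfra at 4.31 ± 1.24 CPM in HPC cells against 9.47 ± 4.03 CPM in LPC cells (edgeR adjusted p with the block 0.0454, and up to 0.376 with 1 pair left out, against 0.344 for group alone). The part of these markers in the results was not tested.

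Mc1r heads the relay, and edgeR called Adcy5 and Adcy9 with the block, in opposite directions, but not without it. The promoters of these 3 members are therefore shown. Each is the RefSeq window on GRCm38.p6 from 250 bases before to 50 bases after an annotated start, written 5′ to 3′ on the gene's own strand, and capitals mark motif matches. Mc1r lies at chr8:123406832-123407131 on the plus strand, Adcy9 at chr16:4420449-4420748 on the minus strand and Adcy5 at chr16:35154614-35154913 on the plus strand.
Mc1r: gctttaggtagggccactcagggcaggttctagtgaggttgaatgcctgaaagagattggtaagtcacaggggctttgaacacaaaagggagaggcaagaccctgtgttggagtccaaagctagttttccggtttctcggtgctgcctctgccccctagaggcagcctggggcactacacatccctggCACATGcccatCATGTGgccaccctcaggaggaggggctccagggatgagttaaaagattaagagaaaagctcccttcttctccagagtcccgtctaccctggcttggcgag
Adcy9: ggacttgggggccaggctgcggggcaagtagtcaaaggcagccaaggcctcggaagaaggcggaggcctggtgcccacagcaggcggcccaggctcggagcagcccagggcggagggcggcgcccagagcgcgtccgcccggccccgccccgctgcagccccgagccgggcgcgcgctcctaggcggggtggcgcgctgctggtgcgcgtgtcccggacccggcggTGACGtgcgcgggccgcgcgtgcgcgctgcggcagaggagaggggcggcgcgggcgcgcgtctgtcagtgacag
Adcy5: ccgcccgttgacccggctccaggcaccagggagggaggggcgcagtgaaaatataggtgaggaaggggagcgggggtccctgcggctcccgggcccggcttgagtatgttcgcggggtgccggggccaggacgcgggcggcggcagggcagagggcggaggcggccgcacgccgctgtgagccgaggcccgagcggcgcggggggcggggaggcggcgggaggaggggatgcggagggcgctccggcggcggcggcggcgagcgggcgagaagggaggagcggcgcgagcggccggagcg

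The motifs searched on both strands were the full cAMP response element TGACGTCA, its half-site TGACG, which lies inside the full one, and the E-box cores CATGTG and CACGTG, the first being the letters of the MITF-bound M-box. In the Mc1r window CATGTG occurs once on each strand, with first bases 62 and 51 before the start. At least 1 match to CATGTG was held by 14.2% of the 32851 RefSeq windows, and at least 2 matches by 2.08%. Adcy9 has 1 half-site, whose first base lies 24 before the start, and 20.8% of windows have at least 1. The Adcy5 window holds none of these letters. Its GC content is 79.0% and that of Adcy9 is 78.3%, against 55.0% in Mc1r. The full element was in none of the 16 windows of the 9 members that the RefSeq table holds, against 1.79% of all windows. A match is a string of letters and says nothing of whether a factor binds, and reads at 3' ends do not tell which start was used.

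Mc1r did not differ between the groups beyond the spread between libraries. It stood at 572, 446 and 532 CPM in HPC libraries 1 to 3, against 639, 508 and 615 CPM in LPC libraries 1 to 3. The groups overlap, since HPC replicates 1 and 3 lie above LPC replicate 2, yet in each pair of equally numbered libraries HPC was the lower one. The log2 fold change was -0.18 (SE 0.14, edgeR adjusted p = 0.759), with a 95% interval of -0.50 to 0.14 without the block. With the block it was again -0.18 (SE 0.09, edgeR adjusted p = 0.311), with a narrower interval of -0.39 to 0.02. The other melanocortin receptor genes on the list of receptors coupled to the stimulatory G protein, Mc2r, Mc3r, Mc4r and Mc5r, had no count in any library.

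**Figure D1:**
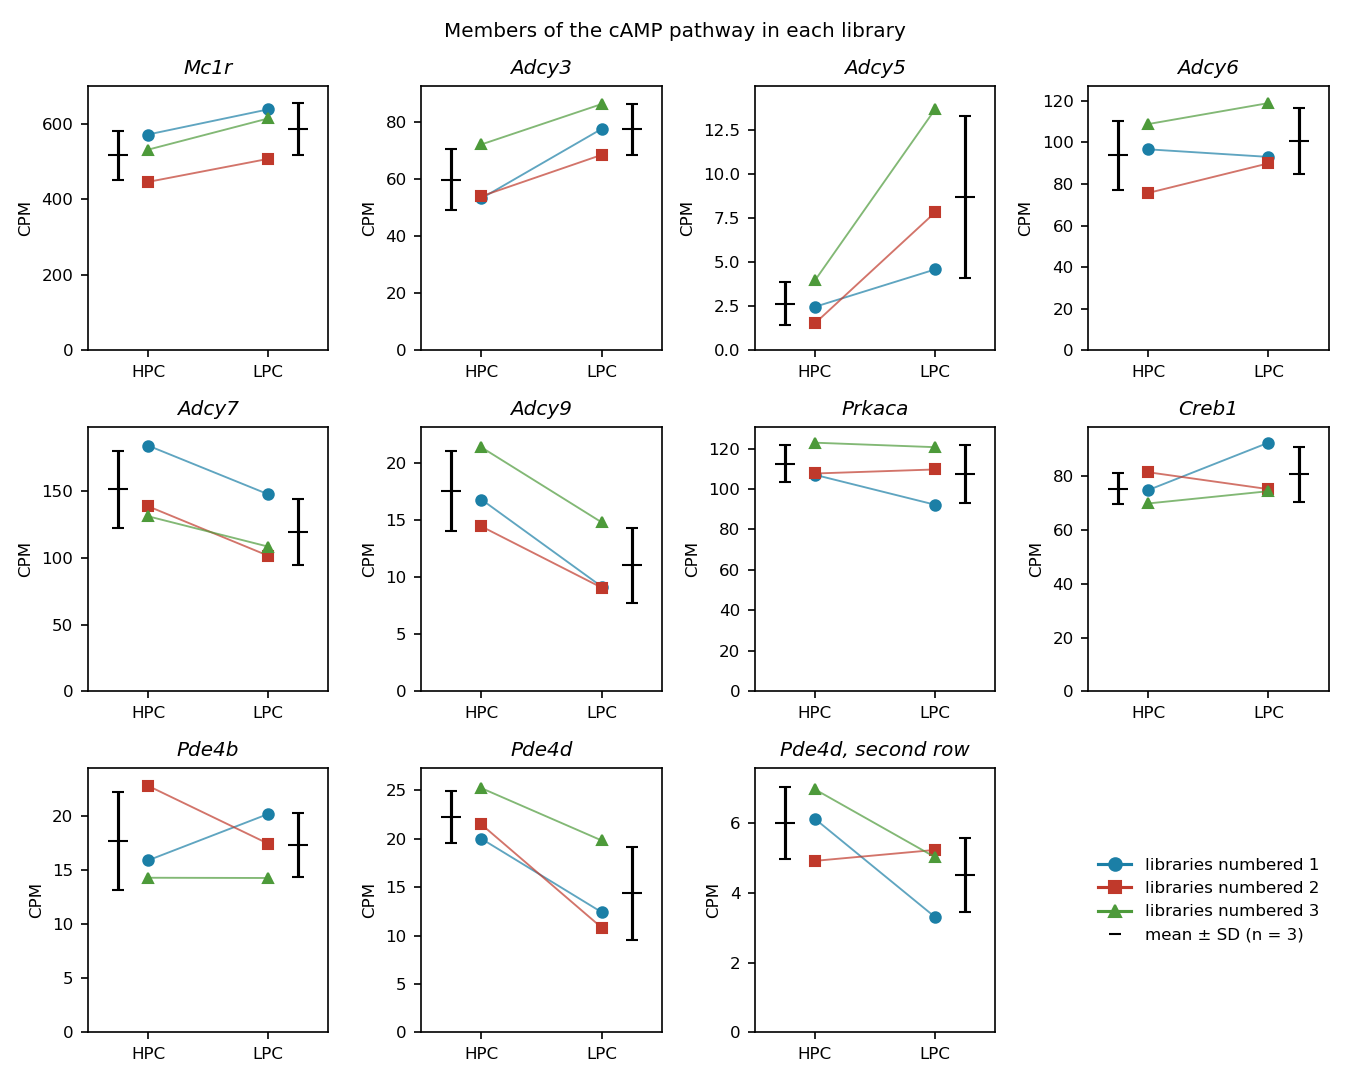
Level in CPM of each member row (y axis, from 0) in the 3 HPC and 3 LPC libraries (x axis), with lines joining libraries of the same number and black bars giving mean ± SD over 3 libraries. Adcy5 is low in all HPC libraries (1.53 to 3.97 CPM against 4.59 to 13.7 CPM in LPC), while Mc1r, Prkaca and Creb1 overlap between the groups.

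Among the cyclases, edgeR called none in the main fit, with group alone. In the fit with the block, Adcy5 was lower and Adcy9 higher in HPC, and the summed level of the family overlapped between the groups. Adcy5, which encodes a cyclase inhibited by calcium and by inhibitory G proteins, had 2.47, 1.53 and 3.97 CPM in HPC libraries 1 to 3, against 4.59, 7.82 and 13.7 CPM in LPC libraries 1 to 3. Every HPC library lay below every LPC library, although the gap between the highest HPC and the lowest LPC library was small. These levels rest on 44, 34 and 78 counts in HPC and 68, 148 and 204 counts in LPC.

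With the block its level in HPC was 3.24-fold lower, at a log2 fold change of -1.69 with an SE of 0.27 (edgeR adjusted p = 0.0287). Without it the estimate was the same size (-1.71, SE 0.47) but did not pass (edgeR adjusted p = 0.281), and DESeq2 called it in both fits (adjusted p = 0.0194 without the block and 5.2e-05 with it). The call with the block ended once the pair numbered 2 was left out (a log2 fold change of -1.39 at edgeR adjusted p = 0.267) or the pair numbered 3 (-1.63 at edgeR adjusted p = 0.0515), in fits that leave 1 residual degree of freedom. The fit without the pair numbered 2 called no tested gene, so that loss is not particular to Adcy5. Without the block the log2 fold change was -1.23 when LPC replicate 3, the library with the most Adcy5, was left out.

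Adcy9, which encodes a cyclase that responds weakly to the plant compound forskolin, had 16.8, 14.4 and 21.4 CPM in HPC libraries 1 to 3, against 9.18, 9.08 and 14.8 CPM in LPC libraries 1 to 3. HPC replicate 2 lay just below LPC replicate 3, so the groups overlap, but each HPC library stood above its LPC partner. The blocked fit put Adcy9 1.61-fold higher in HPC, at a log2 fold change of 0.68 with an SE of 0.13 (edgeR adjusted p = 0.0469), whereas the fit with group alone gave 0.67 and did not pass (SE 0.24, edgeR adjusted p = 0.464). The call was narrow: it ended without the pair numbered 3 (edgeR adjusted p = 0.120). It also ended without the pair numbered 2 (edgeR adjusted p = 0.353), a fit that called no tested gene.

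The remaining cyclases were not called in either fit. Adcy7, whose product responds to stimulatory G proteins and to their beta-gamma subunits, had 184, 138 and 131 CPM in HPC libraries 1 to 3, against 147, 101 and 108 CPM in LPC libraries 1 to 3. Replicate 1 was the highest library in both groups, and HPC exceeded LPC in every pair (log2 fold change with the block 0.35, SE 0.09, edgeR adjusted p = 0.0983, against 0.636 without it). Adcy3, known for its part in odour signalling, was at 53.3, 54.1 and 72.2 CPM in HPC libraries 1 to 3, against 77.7, 68.6 and 86.4 CPM in LPC libraries 1 to 3. HPC was the lower library of each pair, while HPC replicate 3 still exceeded LPC replicate 2 (log2 fold change with the block -0.38, SE 0.10, edgeR adjusted p = 0.0960, against 0.510 without it). Adcy6, the closest relative of Adcy5, had 96.7, 75.7 and 108.8 CPM in HPC libraries 1 to 3, against 93.0, 89.95 and 119 CPM in LPC libraries 1 to 3. It averaged 93.7 ± 16.8 CPM in HPC cells against 101 ± 15.9 CPM in LPC cells (SD, n = 3 each), in overlapping groups whose pairs did not share a sign. The 95% interval of its log2 fold change with the block was -0.33 to 0.12, while that of Adcy5 was -2.33 to -1.06.

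Over all Adcy genes of the table the summed level was 293 to 363 CPM in HPC cells against 287 to 354 CPM in LPC cells. The 5 member cyclases made up 96.5% to 97.7% of these reads, and of the other cyclase genes Adcy2 alone passed the filter (8.92 ± 0.91 CPM in HPC cells against 9.75 ± 1.80 CPM in LPC cells, edgeR adjusted p = 0.897). Adcy5 contributed 0.680%, 0.523% and 1.15% of the cyclase reads in HPC libraries 1 to 3, against 1.35%, 2.72% and 3.86% in LPC libraries 1 to 3. The exact Clopper-Pearson 95% intervals of HPC replicate 3 (0.908% to 1.43%) and LPC replicate 1 (1.05% to 1.71%) overlap, and those of the other libraries do not cross between the groups. These intervals cover counting error only.

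Ratios taken within a library do not depend on how libraries are scaled. There were 6.80, 9.41 and 5.38 reads of Adcy9 for each read of Adcy5 in HPC libraries 1 to 3, against 2.00, 1.16 and 1.08 in LPC libraries 1 to 3. No HPC library came near any LPC library in this ratio, which was formed after the values of both genes were seen and was given no test. Reads of Adcy7 for each read of Adcy3 numbered 3.45, 2.56 and 1.81 in HPC libraries 1 to 3 and 1.90, 1.48 and 1.25 in LPC libraries 1 to 3, so HPC was higher in each pair while the groups overlapped. In bulk libraries, fewer cells with a transcript and less of the transcript per cell cannot be told apart.

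**Figure D2:**
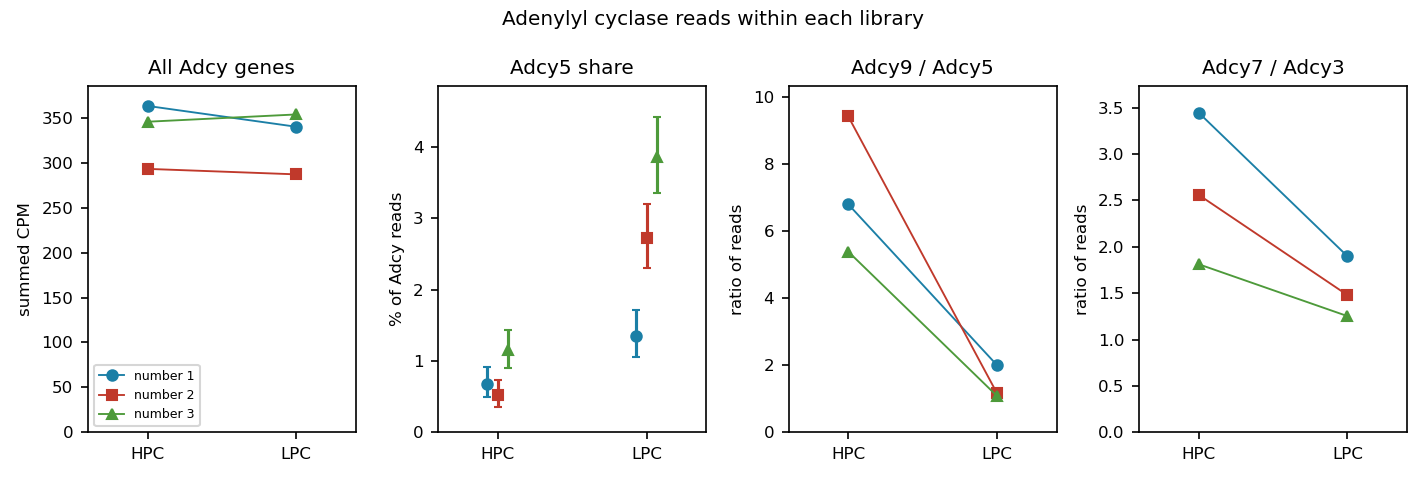
Summed CPM of all Adcy genes, the Adcy5 share of Adcy reads with exact 95% binomial intervals, and the read ratios Adcy9 to Adcy5 and Adcy7 to Adcy3 (y axes, from 0) in HPC and LPC libraries (x axes), 1 point per library coloured by its number. The sum is near level, at 293 to 363 CPM in HPC cells against 287 to 354 CPM in LPC cells, while Adcy9 to Adcy5 is 5.38 to 9.41 in HPC and 1.08 to 2.00 in LPC.

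The kinase and the transcription factor further down the relay did not differ beyond the spread between libraries. Prkaca, the gene of the catalytic alpha subunit of protein kinase A, had 107.0, 108 and 123 CPM in HPC libraries 1 to 3, against 92.2, 109.7 and 121 CPM in LPC libraries 1 to 3. The groups overlap, with means of 113 ± 8.98 CPM in HPC cells against 108 ± 14.3 CPM in LPC cells (SD, n = 3 each). Creb1, whose product binds cAMP response elements, had 74.9, 81.5 and 69.9 CPM in HPC libraries 1 to 3, against 92.5, 75.2 and 74.5 CPM in LPC libraries 1 to 3. LPC library 1 was the highest, the groups overlap, and the means were 75.4 ± 5.82 CPM in HPC cells against 80.7 ± 10.2 CPM in LPC cells. Neither gene was called, and neither had the same sign in all 3 pairs. The 95% interval of the fold, HPC over LPC, was 0.90 to 1.22 for Prkaca with the block and 0.79 to 1.11 for Creb1, so a change as large as that of Adcy9 lies outside both.

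Of the 2 phosphodiesterase members Pde4d had the higher level in every HPC library, without a call by edgeR, and Pde4b showed no shared direction. Pde4d, on its main row (ENSMUSG00000021699), had 19.99, 21.5 and 25.2 CPM in HPC libraries 1 to 3, against 12.4, 10.8 and 19.8 CPM in LPC libraries 1 to 3. The groups do not overlap, but HPC replicate 1 and LPC replicate 3 nearly touch. Its log2 fold change was 0.63 (SE 0.24, edgeR adjusted p = 0.474) without the block and 0.67 (SE 0.15, edgeR adjusted p = 0.0698) with it, so edgeR did not call it in either fit, while DESeq2 with the block did (adjusted p = 0.0215). The second row of that symbol, ENSMUSG00000074661, is not in GENCODE M21, and its identity beyond the symbol was not settled. It had 6.12, 4.92 and 6.96 CPM in HPC libraries 1 to 3, against 3.31, 5.23 and 5.02 CPM in LPC libraries 1 to 3, with a lower HPC library in the pair numbered 2. Summing both rows, a step added after the values were seen, gave a log2 fold change of 0.60 with the block (SE 0.12, edgeR adjusted p = 0.0514).

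Pde4b, which, like Pde4d, encodes an enzyme specific for cAMP, had 15.9, 22.8 and 14.3 CPM in HPC libraries 1 to 3, against 20.2, 17.4 and 14.3 CPM in LPC libraries 1 to 3. Its pairs pointed in different directions, with log2 ratios of -0.34, 0.39 and 0.0024 for the numbers 1, 2 and 3, and its log2 fold change was 0.03 (SE 0.22, edgeR adjusted p = 0.983).

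**Figure D3:**
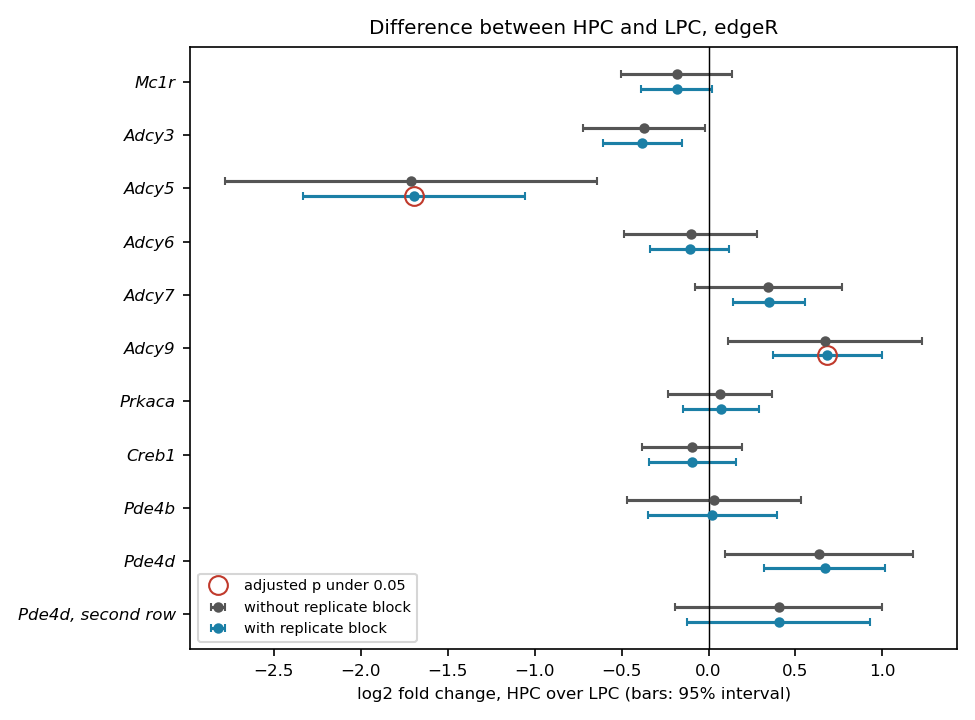
Log2 fold change of each member row (x axis, HPC over LPC) from edgeR without the replicate block in grey and with it in blue, with 95% intervals as bars and red circles where the adjusted p is under 0.05. The circles stand on Adcy5 (-1.69) and Adcy9 (0.68), both with the block, and the block narrows the intervals far more than it moves the estimates.

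Across the 11 member rows edgeR called none without the block, against 0.0419% of all tested genes, while 4 had an unadjusted p under 0.05, against 9.37% of all genes. DESeq2 without the block called Adcy5 alone, against 1.88% of all genes, and limma-voom called none, against 0.0419%. With the block edgeR called Adcy5 and Adcy9, against 2.52% of all genes. Adcy9 was higher in HPC, as 1.43% of all genes were, and Adcy5 lower, as 1.1% were. With the block limma-voom also called these genes, against 2.5% of all genes. DESeq2 with the block called Adcy5, Adcy9 and Pde4d, against 4.14%. The median log2 fold change of the rows was 0.02 with the block, and that of all tested genes was -0.006. In absolute size the median was 0.35, against 0.14 over all tested genes. The members and lists were chosen with earlier results of these data known. Comparisons of them with all tested genes therefore cannot set a trait of the pathway apart from that choice. Groups did not overlap for Pde4d, higher in HPC, and Adcy5, lower in HPC, while 14.3% of all tested genes had groups that did not overlap, 7.16% with HPC higher and 7.18% with HPC lower.

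The sign was shared by all 3 pairs in 6 rows, namely Adcy7, Adcy9 and Pde4d, higher in HPC, and Mc1r, Adcy3 and Adcy5, lower in HPC. Over all tested genes 40.9% shared the sign. Adcy5 had the widest differences, with log2 ratios of -0.89, -2.35 and -1.78 for the numbers 1, 2 and 3. In 8 of the 11 rows the highest HPC and the highest LPC library had the same number, which held for 51.0% of all tested genes. In Adcy3, Adcy5, Adcy6, Adcy9, Prkaca and Pde4d that was number 3, and in Mc1r and Adcy7 number 1.

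**Figure D4:**
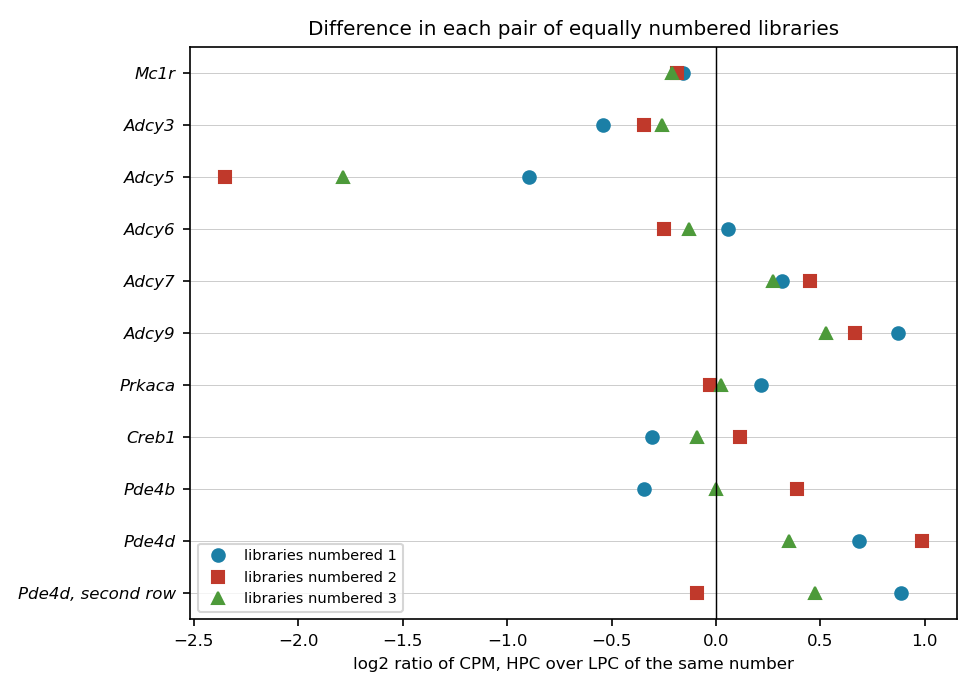
Log2 ratio of CPM, HPC over the LPC library of the same number (x axis), for each member row (y axis), with 1 symbol per number. Points of Mc1r, Adcy3 and Adcy5 all lie left of 0 and those of Adcy7, Adcy9 and Pde4d all right of it, with Adcy5 between -2.35 and -0.89.

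The rest of the pathway was read from 12 lists of upstream, parallel and downstream genes. They held 146 rows outside the members, of which 91 were tested. Without the block edgeR called 0, against 0.0419% of all tested genes, and DESeq2 called Egr1, Pde3a and Pde8b, or 3.30%, against 1.88%. An unadjusted p under 0.05 was reached by 11 of them, or 12.1%, against 9.37% of all tested genes. With the block 1 was higher and 2 were lower in HPC, or 3.30% of the tested rows, against 2.52% of all tested genes. Their median log2 fold change was 0.01.

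Both genes that were lower encode phosphodiesterases. Pde3a, whose product hydrolyses cAMP and is inhibited by cGMP, had 11.9, 11.8 and 11.2 CPM in HPC libraries 1 to 3, against 29.6, 22.1 and 26.0 CPM in LPC libraries 1 to 3. The HPC libraries were nearly equal and lay far below all LPC libraries. The blocked fit put it 2.21-fold lower in HPC, at a log2 fold change of -1.14 with an SE of 0.13 (edgeR adjusted p = 0.0126), and the adjusted p was 0.0715 without the block. That call ended without the pair numbered 2 (edgeR adjusted p = 0.105), a fit that called no tested gene.

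Pde8b, which encodes a phosphodiesterase with high affinity for cAMP, had 1.46, 1.76 and 1.58 CPM in HPC libraries 1 to 3, against 5.06, 3.22 and 4.08 CPM in LPC libraries 1 to 3. The blocked fit put it 2.52-fold lower in HPC, at edgeR adjusted p = 0.0480, compared with 0.182 for group alone, a difference that limma-voom with the block did not call (adjusted p = 0.0524). The call ended without the pair numbered 3 (edgeR adjusted p = 0.129). It also ended without the pair numbered 2 (edgeR adjusted p = 0.259), a fit that called no tested gene. Of 9 tested phosphodiesterase genes outside the members, 6 had positive log2 fold changes, among them Pde7a at 73.9 ± 9.03 CPM in HPC cells against 58.5 ± 6.68 CPM in LPC cells and Pde10a at 17.8 ± 2.35 and 13.7 ± 2.15 CPM, and the list's median was 0.21 with the block. None of these 6 was called. The list summed to 319 to 378 CPM in HPC cells against 288 to 379 CPM in LPC cells.

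At the other end of the relay, the list of CREB relatives, coactivators and the salt-inducible kinases that restrain those coactivators had 10 tested genes. All 10 log2 fold changes were positive, as were 48.9% of those of all tested genes, but edgeR called none in either fit, and DESeq2 called none. The median was 0.17 with the block, and the smallest values were 0.01 for Atf1 and 0.02 for Crtc2. Creb1 itself is a member and so not on this list, and its log2 fold change with the block was negative, at -0.09. Crem, which encodes a CREB relative that also yields a cAMP-induced repressor, averaged 20.5 ± 4.77 CPM in HPC cells against 13.9 ± 2.15 CPM in LPC cells, with groups that overlap through the libraries numbered 3 (log2 fold change with the block 0.54, SE 0.19, edgeR adjusted p = 0.189, against 0.471 without it).

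Of 16 tested textbook CREB targets Egr1 was called, higher in HPC with the block, and none lower. Egr1, an immediate early transcription factor gene that MAP kinase signalling also induces, had 3.82, 6.31 and 4.37 CPM in HPC libraries 1 to 3, against 1.08, 0.69 and 1.00 CPM in LPC libraries 1 to 3. All HPC libraries stood well above all LPC libraries (log2 fold change with the block 2.39, SE 0.32, edgeR adjusted p = 0.0181, against 0.0715 without it). The call ended without the pair numbered 2 (edgeR adjusted p = 0.190), a fit that called no tested gene. The list as a whole had 10 positive and 6 negative log2 fold changes, and its median was 0.07 with the block. Groups also did not overlap for Sik1 (0.43), higher in HPC, and for Ier2 (-0.34) and Rgs2 (-0.69), lower in HPC, as for 14.3% of all tested genes. None of them was called. Mitf, also on this list, averaged 547 ± 62.9 CPM in HPC cells against 529 ± 76.9 CPM in LPC cells (edgeR adjusted p with the block 0.833).

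Upstream of the cyclases no gene was called by edgeR in either fit. Of 21 other receptor genes coupled to the stimulatory G protein 7 were tested. Ptgir, the prostacyclin receptor gene, averaged 19.2 ± 5.84 CPM in HPC cells against 34.5 ± 13.6 CPM in LPC cells, with overlapping groups (log2 fold change with the block -0.81, edgeR adjusted p = 0.105), and was called by DESeq2 with the block (adjusted p = 0.00937). Among 16 tested G protein genes of which none was called, the fit without the block gave its lowest unadjusted p, among those of at least 5 CPM, to Gnb2, a beta subunit gene, at 383 ± 12.1 CPM in HPC cells against 450 ± 49.8 CPM in LPC cells (edgeR adjusted p = 0.606). With the block Gnao1, an alpha subunit gene of the inhibitory class named after its values were seen, had a lower p than Gnb2, at 61.4 ± 10.5 CPM in HPC cells against 48.4 ± 11.1 CPM in LPC cells (edgeR adjusted p of 0.1003 in the blocked fit and 0.644 for group alone). Atrn, which encodes attractin, a membrane protein of the mouse pigment-type switching pathway, was at 165 ± 6.18 CPM in HPC cells against 153 ± 18.8 CPM in LPC cells (edgeR adjusted p = 0.847 without the block and 0.604 with it). Of the receptor genes coupled to inhibitory G proteins, 2 were tested, with Gabbr1 at 55.2 ± 7.51 CPM in HPC cells against 67.3 ± 20.7 CPM in LPC cells (edgeR adjusted p = 0.750 without the block and 0.327 with it).

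Genes that surround protein kinase A and its parallel arm were not called either. All 8 other subunit and inhibitor genes were tested, with a median log2 fold change of -0.01 with the block. Pkia, which encodes a kinase inhibitor, stood at 60.7 ± 8.08 CPM in HPC cells against 51.8 ± 7.42 CPM in LPC cells (edgeR adjusted p = 0.705 without the block and 0.268 with it). Of 10 tested anchoring protein genes Akap11 was at 125 ± 5.02 CPM in HPC cells against 96.2 ± 14.7 CPM in LPC cells, in groups that do not overlap (edgeR adjusted p = 0.432 without the block and 0.142 with it). The 5 genes of the EPAC and Rap list had a median of -0.05 with the block. Rap1gap was at 20.3 ± 4.03 CPM in HPC cells against 24.7 ± 7.65 CPM in LPC cells (edgeR adjusted p = 0.792 without the block and 0.335 with it). The 6 phosphatase genes had a median of -0.04 with the block, with Ppp1ca at 328 ± 35.8 and 379 ± 52.9 CPM (edgeR adjusted p = 0.715 without the block and 0.267 with it).

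**Figure D5:**
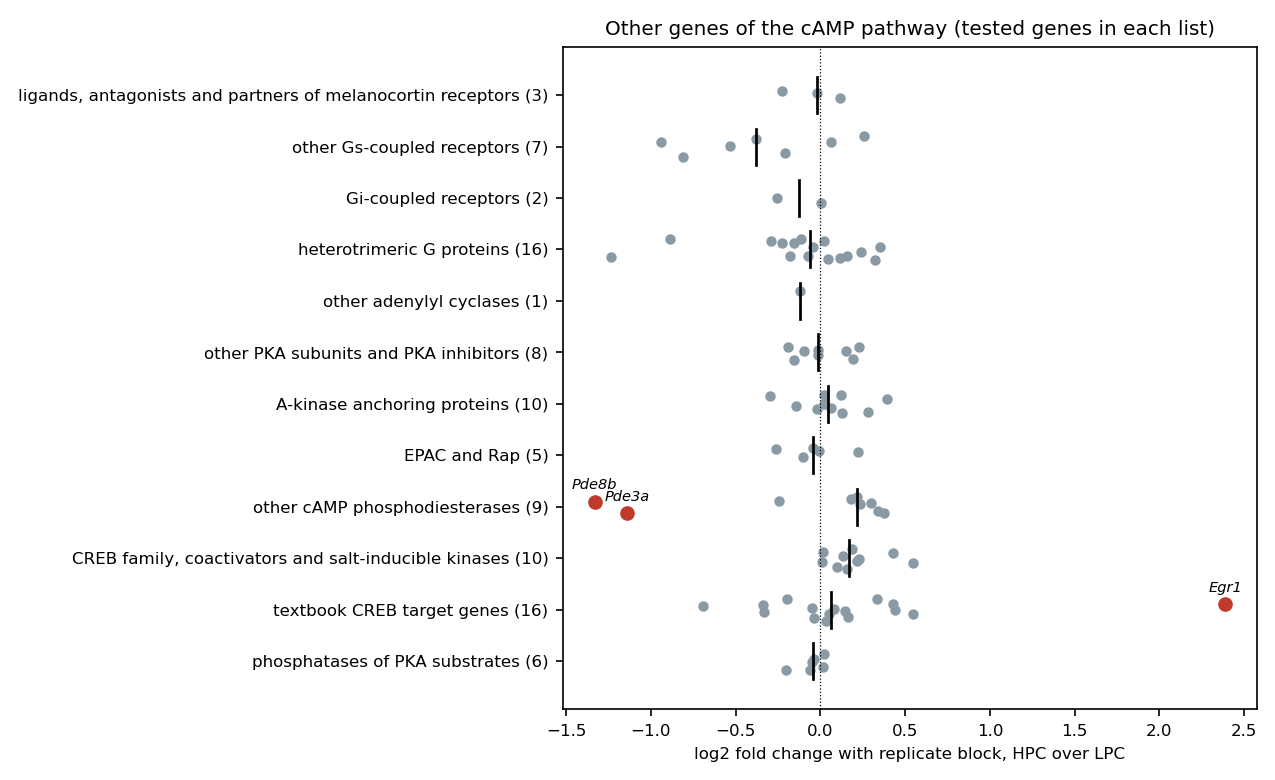
Log2 fold change with the replicate block (x axis, HPC over LPC) of every tested gene in the 12 lists (y axis, number tested in brackets), with black bars at list medians and red points where the edgeR adjusted p is under 0.05. The red points are Pde3a (-1.14), Pde8b (-1.33) and Egr1 (2.39), and all 10 genes of the CREB family list, which leaves out the member Creb1, lie right of 0.

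On GRCm38, with GENCODE M21, the plus-strand genes Mc1r, Adcy5 and Pde4d span chr8:123407107-123410744, chr16:35154877-35305738 and chr13:108449948-109953461, and the minus-strand gene Adcy9 spans chr16:4287529-4420498. Mc1r overlaps Gm20388 on its own strand, a gene with no count in any library, Adcy5 overlaps Gm49702 on its own strand, and Adcy9 and Pde4d hold processed pseudogenes on theirs, Gm6142 and Rps3a3. Adcy3 overlaps Cenpo on the opposite strand. Whether reads were counted by strand is not given in the sources used here, so reads of such neighbours cannot be told apart from those of the members.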

How the data were processed

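RNA from sorted B16-F3 cells was made into QuantSeq 3' mRNA-Seq FWD libraries, per the labels' protocols. STAR and the build GRCm38 are named, per the submitters' processing notes. Which program counted reads, on which annotation and strand, and whether molecular identifiers were used is not given in the sources used here. Raw, unnormalized counts for each gene were deposited by the authors, and columns were matched to samples by name.

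Genes were filtered with filterByExpr, libraries scaled with TMM, and HPC compared with LPC by edgeR's quasi-likelihood test (edgeR 4.0.16, R 4.3.3), with Benjamini-Hochberg adjustment over all 11921 tested genes. SEs and 95% intervals were derived from the F statistic. Scaled levels (CPM) were computed with the TMM factors, and errors of means are SDs over 3 libraries. DESeq2 1.42.0, limma-voom (limma 3.58.1), other scalings, no filter and left-out libraries were alternatives.

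Deviations from group means correlated at 0.42, 0.35 and 0.65 between libraries of the same number, all over the minimum of 0.1, so numbers were taken to pair the libraries. Of the unlike numbers, HPC replicate 2 with LPC replicate 1 also passed that minimum, at 0.20. The others ran from -0.59 to -0.05. The minimum alone thus does not set libraries of the same number apart. The pairing by number comes from the data, not the labels. The fit with that block has 2 residual degrees of freedom, against 4 without. Within each group, no pair of libraries was alike within counting noise, and libraries of different groups were not compared in this way.

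The members and lists were chosen with earlier results of these data known. From each list the text names genes called in either fit or, where none is, the gene of at least 5 CPM with the smallest unadjusted p in the fit without the block. For Mc1r and the called members the 3 genes of the most similar profile are also named. Pde7a, Pde10a, Akap10, Atf1, Crtc2 and the genes of the marker lists at 0 were named after their values were seen. So were Sik1, Ier2, Rgs2 and Mitf among the CREB targets. GENCODE M21 (GRCm38) holds 96.1% of the gene identifiers.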

Additional observations from a re-analysis of the deposited data

How the results depend on the processing

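The smallest library held 14695822 counts. Among the member rows counting error weighs most on those with the fewest counts, Adcy5 with 34 to 204 in a library and the second Pde4d row with 49 to 137. Called genes outside the members had fewer still. Egr1 had 68 to 140 counts in HPC libraries and 13 to 16 in LPC libraries, and Pde8b had 26 to 39 and 61 to 75.

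Over all tested genes 5 were called. The number was 301 with the replicate block, 224 with DESeq2, 28 with no filter, 493 with DESeq2 and the block and 298 with limma-voom and the block. It ran from 0 to 43 when 1 library was left out and, with the block, was 2947, 0 and 196 without the pair numbered 1, 2 and 3. Of the 11 member rows 0 were called, against 2 with the replicate block (2 with the Pde4d rows summed), 1 with DESeq2, 3 with DESeq2 and the block and 2 with limma-voom and the block. Leaving out 1 library gave 0, and leaving out 1 pair from the blocked fit gave 0 to 5. The 5 came without the pair numbered 1 and were Adcy3, Adcy5, Adcy7, Adcy9 and Pde4d, in a fit with 1 residual degree of freedom. The cause of these shifts was not tested.

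For Mc1r, Adcy3, Adcy5, Adcy7, Adcy9 and both Pde4d rows the direction was the same under every alternative run. With 1 library left out, log2 fold changes ran from -0.223 to 0.0342 for Adcy6 (above 0 without HPC replicate 2 at 0.0311 or LPC replicate 3), from -0.196 to 0.164 for Pde4b (below 0 without HPC replicate 2, or LPC replicate 3 at -0.0872), from -0.0321 to 0.156 for Prkaca (below 0 without LPC replicate 1, or HPC replicate 3 at -0.0016) and from -0.156 to 0.0128 for Creb1 (above 0 without LPC replicate 1). With the block and 1 pair left out the sign turned for Pde4b (-0.174, number 2), Creb1 (0.0263, number 1) and Adcy2 (0.0657, number 3). Of 650 gene results under alternatives, 566 kept direction and side of the threshold and 74 passed where the fit without the block did not. None of these genes was called by edgeR without the block, so the count cannot show the loss of a call. The block on DESeq2 and limma-voom and the summed Pde4d rows were chosen after seeing the data.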

Other observations

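Genes whose levels ran most like those of Mc1r, Adcy5 and Adcy9 over the 6 libraries were found by the mean absolute difference of log2(CPM + 0.1), each gene centred on its own mean, among 10214 other genes of at least 5 CPM. The groups and the 3 library numbers shape all of these profiles, so closeness over 6 libraries is a description and carries no test. The genes below were picked for profiles like those of the members, so their adjusted p-values add no separate support. For Adcy5 the closest were Atp2b4, a calcium pump gene (0.17), Jup, which encodes plakoglobin (0.22), and Rtn4rl1 (0.23), against a median of 0.85 over the genes compared. Atp2b4 averaged 6.08 ± 2.05 CPM in HPC cells against 18.6 ± 7.50 CPM in LPC cells (SD, n = 3 each; edgeR adjusted p 0.0134 in the blocked fit and 0.189 for group alone). Jup averaged 6.07 ± 1.85 CPM in HPC cells against 19.8 ± 10.6 CPM in LPC cells. The edgeR fit did not call Jup with the block (adjusted p = 0.0501) or for group alone (adjusted p = 0.255), while DESeq2 without the block did (adjusted p = 0.00616).

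For Adcy9 the closest were 6430548M08Rik (0.034), Lpar2, a lysophosphatidic acid receptor gene (0.067), and Gatsl2 (0.078), against a median of 0.41. Gatsl2 averaged 59.0 ± 13.2 CPM in HPC cells against 38.6 ± 7.43 CPM in LPC cells (edgeR adjusted p 0.0294 in the blocked fit and 0.375 for group alone). For Mc1r they were Sdc2, a syndecan gene (0.035), Proser1 (0.039) and Bcl9 (0.041), against a median of 0.21, and none of these 3 was called by edgeR in either fit (adjusted p from 0.359 to 0.466 with the block).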
